A study of Homo sapiens with 4 samples.

Results

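The genes described here are 43 genes of DNA replication and mitosis in A549 cells. They were chosen by name, without a limit on their values, but with earlier results of these data known. The list holds 22 genes of DNA replication and nucleotide supply and 14 genes of mitosis. The other 7 are cyclins, phosphatases, transcription factors and proliferation markers that act on either side of these steps. Each gene was represented by its brightest probe set that named that gene alone. They are 43 of the 19775 genes that could be named on the array, and all 43 were among the 12521 genes counted as expressed, that is, with a mean signal at or above the median of all probe sets (66.3).

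A549 is a human lung adenocarcinoma line, a type of non-small cell lung cancer (NSCLC). The study asked which genes nicotine regulates in these cells through β-arrestin-1, the scaffolding protein encoded by ARRB1. RNA was measured on 4 Affymetrix U133 Plus 2.0 arrays, 1 for each pairing of an siRNA (control or ARRB1) with a treatment (serum starved or nicotine). Cells of every condition were grown in serum, transfected with a non-targeting control siRNA or with siRNA to ARRB1, and then serum starved for 36 h to make them quiescent. Nicotine was given at 1 µM for 24 h, and the serum starved cells received none. No condition was repeated, so no difference could be set against the spread of replicates and no test was made.

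Chromosomes are copied in S phase, after the origin recognition complex, CDC6 and CDT1 have loaded the MCM helicase onto DNA and CDC45 and GINS have switched it on. In mitosis CDK1 with B-type cyclins, the Polo and Aurora kinases and the spindle checkpoint then part the copies. In many cell types the replication genes are E2F targets, held down by RB family proteins in quiescent cells, whereas the mitotic genes are switched on later through CHR and CCAAT elements, and both sets are abundant in dividing tumour cells.

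The promoters of these genes show part of this split in their sequence, in E2F sites and CHR matches but not in the CCAAT box. RefSeq promoters of 300 bases on GRCh38.p14, 250 before and 50 after the start site, matched 37 of the 43 genes. The genes without an entry were MCM4, MCM5, AURKA, TTK, CCNE2 and FOXM1. Each promoter was searched on both strands for an E2F site (TTTCCCGC or TTTGGCGC), a CHR (TTTGAA) and a CCAAT box (CCAAT). An E2F site was found in 10 of 20 replication promoters (50%), in 0 of 12 mitosis promoters and in 2.31% of the promoters of all 27305 genes in the table. A CHR was found in 1 of 20 replication promoters, that of RRM1, in 8 of 12 mitosis promoters (66.7%) and in 15.4% of all promoters. The CCAAT box stood in 14 of 20 replication promoters (70.0%), in 10 of 12 mitosis promoters (83.3%) and in 35.7% of all promoters. A CHR and a CCAAT box together were held by 7 of 12 mitosis promoters (58.3%) and by 6.08% of all promoters. The only matches of different motifs that shared a base were a CHR and a CCAAT box of MKI67. A match is a description of the letters and not a measured binding site.

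Stretches of 3 replication promoters with an E2F site and 3 mitosis promoters with a CHR are shown so the motifs can be read directly. Capitals mark the motifs, and a motif on the other strand is read as its reverse complement (GCGGGAAA, ATTGG or TTCAAA). PCNA encodes the sliding clamp of the replicative polymerases, MCM6 a subunit of the replicative helicase and CDT1 the factor that loads it. These stretches lie at chr20:5126623-5126712 (minus strand), chr2:135876488-135876603 (minus strand) and chr16:88803729-88803788 (plus strand).
PCNA: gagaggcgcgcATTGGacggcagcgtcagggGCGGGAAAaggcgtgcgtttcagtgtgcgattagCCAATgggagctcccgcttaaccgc
MCM6: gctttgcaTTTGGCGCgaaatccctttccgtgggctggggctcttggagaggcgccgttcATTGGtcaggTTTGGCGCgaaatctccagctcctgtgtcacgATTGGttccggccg
CDT1: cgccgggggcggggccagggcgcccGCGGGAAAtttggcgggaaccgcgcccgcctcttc

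CCNB2 encodes cyclin B2, PLK1 the Polo kinase of mitotic entry and KIF11 the kinesin that pushes spindle poles apart. Their stretches lie at chr15:59105016-59105145, chr16:23678799-23678888 and chr10:92593060-92593129, all on the plus strand, and each holds a CHR close to the start site with a CCAAT box upstream of it.
CCNB2: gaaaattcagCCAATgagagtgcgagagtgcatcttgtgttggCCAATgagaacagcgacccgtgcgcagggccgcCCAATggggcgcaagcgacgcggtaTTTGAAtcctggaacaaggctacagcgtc
PLK1: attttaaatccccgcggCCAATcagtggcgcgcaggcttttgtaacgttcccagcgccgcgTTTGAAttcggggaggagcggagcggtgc
KIF11: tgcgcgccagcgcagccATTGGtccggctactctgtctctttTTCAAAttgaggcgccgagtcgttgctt

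**Figure D1:**
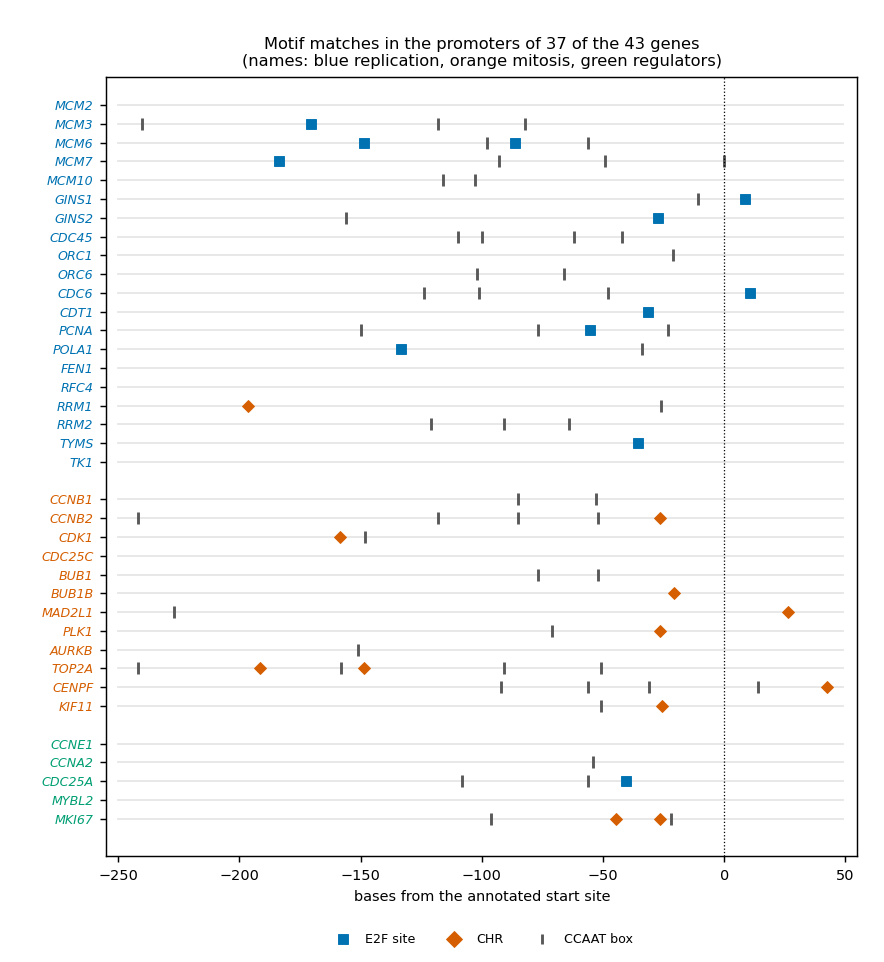
Positions of E2F sites (squares), CHR matches (diamonds) and CCAAT boxes (ticks) in the promoters of 37 of the 43 genes, in bases from the annotated start site (dotted line at 0), with gene names coloured by group. The squares lie in 10 replication promoters and that of CDC25A, and the diamonds lie in 8 mitosis promoters and those of RRM1 and MKI67.

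The labels were checked first. Of 5 expressed ARRB1 probe sets, 4 had less signal after ARRB1 siRNA than after control siRNA in each pair of arrays, and the median of the 5 kept 55.2% of its control signal when serum starved and 67.8% with nicotine. Probe set 221861_at was the exception in both pairs, and the other 2 ARRB1 probe sets were not expressed. All 11 lung epithelial and A549 markers were expressed. Of 12 markers of other cell types with a probe set, 5 were above the limit for expression (PECAM1, COL1A1, DCN, ACTA2 and CHGA), and the leukocyte markers PTPRC, CD3E and CD14 were not. The summed signal of the 12 lay between 1863 and 1982 over the arrays, and that of the epithelial markers between 142197 and 193927, highest with ARRB1 siRNA and nicotine. Relative to the median gene, 8 of the 11 epithelial markers were higher with ARRB1 siRNA in both pairs, beside 32.1% of all expressed genes. The 3 lower ones were EPCAM, CDH1 and MUC1. With nicotine 8 of the 11 were also higher in both pairs, beside 27.3% of all expressed genes. CDH1 had signals of 5218 and 4812 with control siRNA, and 3201 and 2827 with ARRB1 siRNA. The part of these shifts in the results was not tested. The 4 arrays had been scaled to the same mean, and their median signals lay between 68.6 and 73.3.

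The 43 genes were expressed on every array. Their lowest signal was 289 (CDC25A, control siRNA nicotine) and their highest was 16542 (PCNA, ARRB1 siRNA serum starved). In serum starved cells with control siRNA the signal was 314 or more for every gene, with a median of 2858 for the replication genes, 2391 for the mitosis genes and 967 for the 7 regulators. The genes also varied little. The highest of the 4 signals was a median of 1.15 times the lowest, from 1.03 times for GINS1 to 1.68 times for CDC25A. Of the 43 genes, 29 (67.4%) had a highest signal less than 25% above the lowest, against 55.8% of the 8426 expressed genes in the same range of signals, and 0 reached 2-fold against 145 of those 8426. That range ran from the faintest to the brightest member, and the distribution of signals within it was not matched. In RNA from whole cultures, fewer cycling cells and less RNA per cycling cell cannot be told apart.

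**Figure D2:**
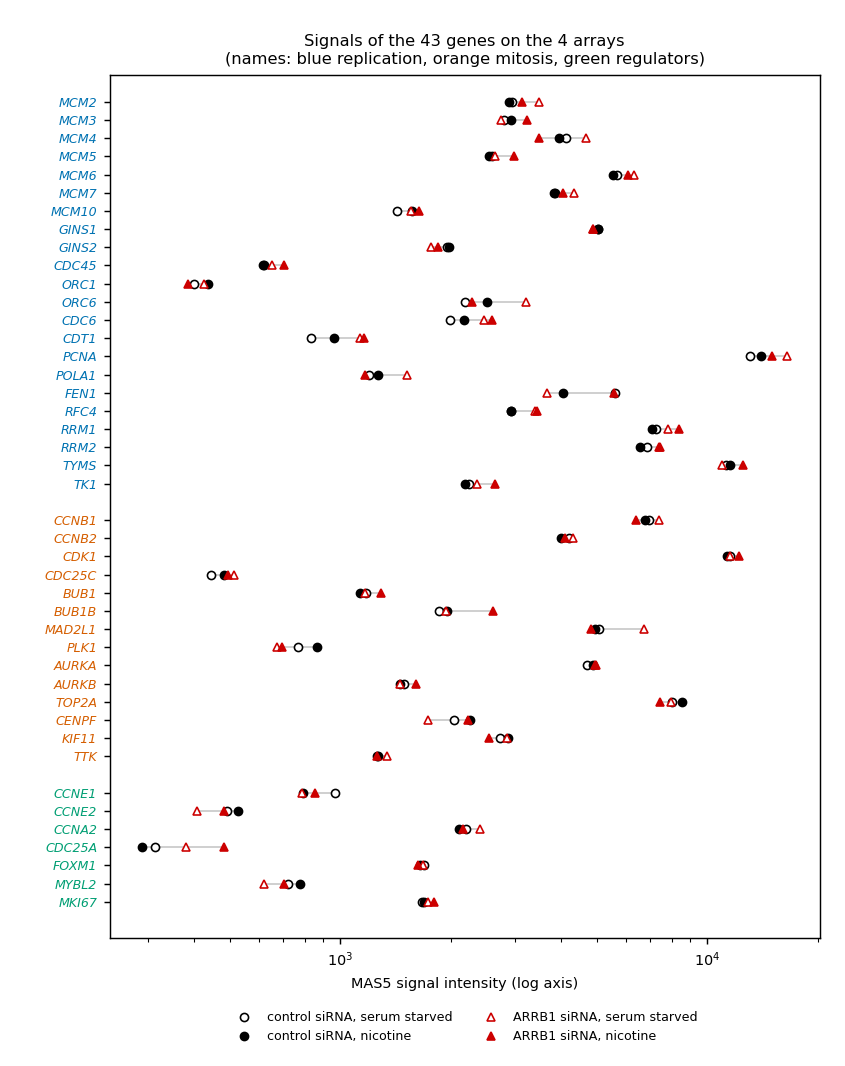
Signal of each of the 43 genes on the 4 arrays, on a logarithmic axis of MAS5 signal intensity, with circles for control siRNA, triangles for ARRB1 siRNA, open symbols for serum starved and filled symbols for nicotine, and 1 array per symbol. For 29 of the 43 genes the highest symbol is less than 25% above the lowest, and the widest spreads are those of CDC25A and FEN1.

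Differences between arrays are given as log2 of the ratio of the signals, nicotine over serum starved or ARRB1 siRNA over control siRNA. None of the 43 genes differed 2-fold, the limit in the submitters' notes, in any of the 4 comparisons. Among all expressed genes, 1.05% differed 2-fold with nicotine in control siRNA cells, 1.45% with nicotine in ARRB1 siRNA cells, 1.8% after ARRB1 siRNA in serum starved cells and 2.28% after ARRB1 siRNA in nicotine treated cells. A smaller limit of 25% higher or 20% lower, 0.32 either way on the log2 scale, separates the members further and is used as a description. Shares of all expressed genes past a fold limit, here and below, are not matched for signal. A range under 25% over the 4 arrays was seen in 43.3% of all expressed genes and 55.8% of those in the members' signal range. The SD of the log2 differences of the 500 expressed genes nearest in signal gives a scale for the noise and the shared variation between 2 arrays. At the signals of the 43 genes its median was 0.14 and 0.22 for the 2 nicotine comparisons and 0.24 and 0.27 for the 2 siRNA comparisons.

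With nicotine in control siRNA cells, the replication and mitosis genes stayed close to the serum starved level. None of the 43 genes was 25% higher, where 8.44% of expressed genes were, and 1 was 20% lower, FEN1, where 7.3% of expressed genes were. The median log2 difference was 0.00 for the replication genes, 0.03 for the mitosis genes and -0.04 for the regulators, and -0.02 for all expressed genes. Of the 43 genes, 4 differed by more than the SD of genes of like signal, beside 28.7% of all expressed genes. The highest differences were those of CDT1 (0.21), ORC6 (0.20) and PLK1 (0.18), and the lowest were those of FEN1 (-0.47) and CCNE1 (-0.29).

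In ARRB1 siRNA cells the nicotine differences spread more, among these genes and among all expressed genes, whose 5th percentile was -0.57 against -0.38 in control siRNA cells. FEN1, BUB1B, CENPF and CDC25A were at least 25% higher, 4 of 43 beside 8.58% of expressed genes, and MCM4, ORC6, POLA1 and MAD2L1 were at least 20% lower, 4 of 43 beside 14.5% of expressed genes. The medians were 0.03 for the replication genes, -0.02 for the mitosis genes and 0.11 for the regulators, against -0.01 for all expressed genes. Differences beyond the SD of genes of like signal were seen for 11 of the 43, beside 27.6% of all expressed genes, which is near the background.

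With ARRB1 siRNA the replication genes stood slightly above the median gene in both pairs of arrays, while by brightest probe set the mitosis genes were near it. In serum starved cells the median log2 difference of the 22 replication genes was 0.12, against 0.05 for the mitosis genes, -0.01 for the regulators and 0.02 for all expressed genes. In nicotine treated cells the medians were 0.13, 0.01, 0.04 and 0.02 in the same order. Of the 22 replication genes, 17 and 16 were above the median gene. The shifts had no replicate check. Relative to all expressed genes, the mitosis median in serum starved cells took either sign under other scalings and choices of probe set, from -0.05 to 0.04. In nicotine treated cells it ran from -0.115, with the median of the probe sets of a gene, to 0.004. ORC6, CDT1, PCNA, POLA1 and MAD2L1 were at least 25% higher in serum starved cells, 5 of 43 beside 14.1% of expressed genes, and FEN1 was at least 20% lower, 1 of 43 beside 12.7%. In nicotine treated cells FEN1, BUB1B and CDC25A were at least 25% higher, 3 of 43 beside 12.9%, and none was 20% lower, where 15.8% of expressed genes were.

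**Figure D3:**
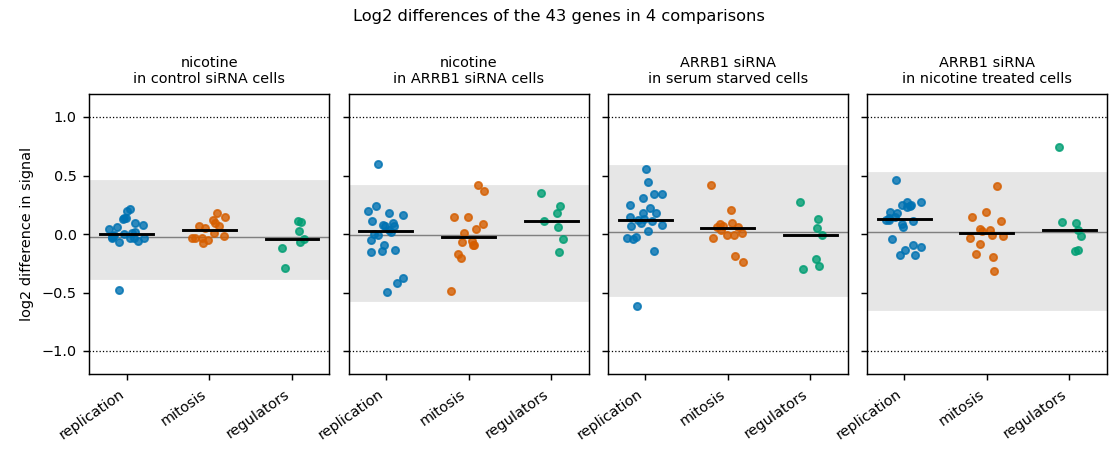
Log2 difference in signal of each of the 43 genes in the 4 comparisons, with 1 point per gene, a black line at the median of each group, a grey line at the median of all expressed genes, a grey band from their 5th to their 95th percentile, and dotted lines at 2-fold. No point reaches a dotted line, and the replication medians with ARRB1 siRNA lie at 0.12 and 0.13.

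The 2 siRNA comparisons share no array, so the direction of a gene can be read in each on its own. Relative to the median expressed gene, 20 of the 43 genes (46.5%) were higher with ARRB1 siRNA in both pairs, beside 32.1% of all expressed genes, and 8 (18.6%) were lower in both, beside 32.1%. The 20 genes were 13 of 22 replication genes, 4 of 14 mitosis genes (CCNB2, CDC25C, BUB1B and AURKA) and 3 of 7 regulators. A stricter count asks for both ARRB1 siRNA arrays to lie above both control siRNA arrays. It held for 17 of the 43 genes (39.5%), beside 26.6% of all expressed genes. These were 12 of 22 replication genes (54.5%), namely MCM2, MCM5, MCM6, MCM7, CDC45, CDC6, CDT1, PCNA, RFC4, RRM1, RRM2 and TK1, with CDK1, CDC25C, AURKA, CDC25A and MKI67. Both ARRB1 siRNA arrays lay below both others for 6 of the 43 (14%), which were GINS1, GINS2, PLK1, TOP2A, CCNE2 and MYBL2, beside 22.6% of all expressed genes.

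For nicotine the same counts were made. Relative to the median gene, 17 of the 43 genes (39.5%) were higher with nicotine in both pairs, beside 27.3% of all expressed genes, and 8 (18.6%) were lower in both, beside 27.3%. Both nicotine arrays lay above both serum starved arrays for MCM3, MCM10, TYMS, BUB1B and CENPF, 5 of 43 (11.6%) beside 12.0%. They lay below for MCM4, CCNB1, CCNB2, MAD2L1, CCNA2 and FOXM1, 6 of 43 (14%) beside 16.5%.

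**Figure D4:**
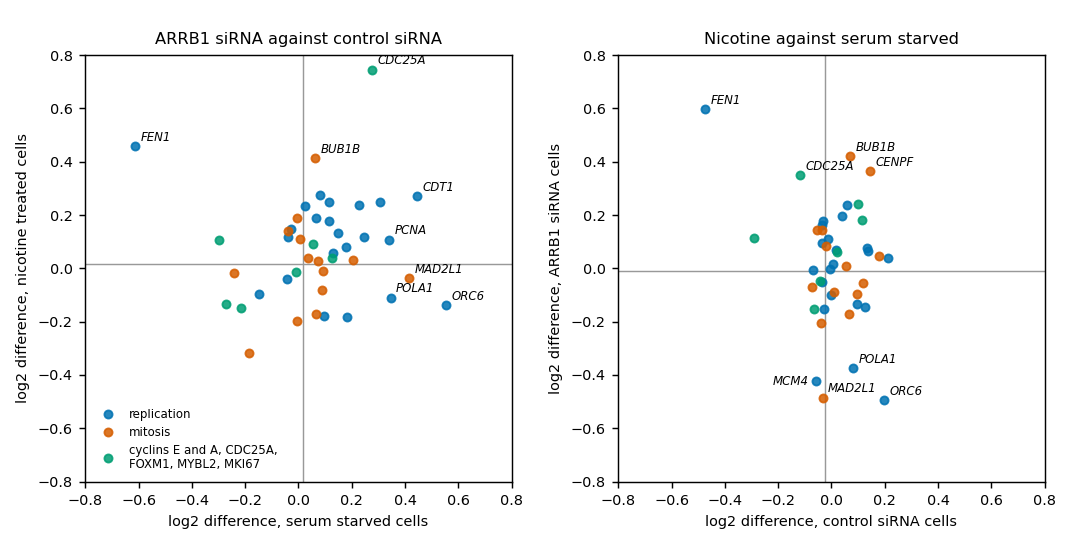
Left, log2 difference of each of the 43 genes between ARRB1 siRNA and control siRNA in nicotine treated cells (vertical) against serum starved cells (horizontal); right, log2 difference between nicotine and serum starved in ARRB1 siRNA cells (vertical) against control siRNA cells (horizontal), with grey lines at the medians of all expressed genes and names for genes past the limit of 25% higher or 20% lower in either comparison. On the left 20 points lie to the upper right of the grey lines, and FEN1 lies to the upper left in both panels.

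Signals of single genes follow with the 2 control siRNA arrays first and the 2 ARRB1 siRNA arrays after them, and in each pair serum starved before nicotine. Levels of different genes are read with different probes and are not compared with each other. Counts of higher or lower genes within a role go by the sign of the difference alone, however small. The roles hold few genes each and were formed after the values were seen. With ARRB1 siRNA the median expressed gene stood at 0.02 in both pairs, so more expressed genes were higher than lower.

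The factors that license origins bind before S phase. ORC6, a subunit of the origin recognition complex, had signals of 2190, 2511, 3214 and 2281. Its serum starved ARRB1 siRNA array stood alone, 0.55 above control siRNA on the log2 scale, while in nicotine treated cells the difference was -0.14. CDT1, the loading factor whose promoter is shown above, had signals of 833, 965, 1134 and 1163. Both ARRB1 siRNA arrays were the higher ones, with log2 differences of 0.44 and 0.27 from control siRNA. The other CDT1 probe set, 209832_s_at, gave 363, 482, 414 and 411. Its differences with ARRB1 siRNA were 0.19 and -0.23, so it was lower in nicotine treated cells. CDC6, the ATPase that loads the helicase with CDT1, had signals of 1989, 2181, 2461 and 2592, with log2 differences of 0.31 and 0.25. Its second expressed probe set, 203968_s_at, gave 1499, 1627, 1726 and 1894 in the same order of arrays. ORC1, the large subunit of the origin complex, had signals of 399, 436, 426 and 385, with no common order in the pairs. ORC6 and CDT1, like FOXM1, were read by _x_at probe sets, which may also bind related transcripts. Over these 4 genes the median log2 difference with ARRB1 siRNA was 0.38 in serum starved cells, where all 4 were higher, and 0.06 in nicotine treated cells, where 2 were higher.

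The MCM helicase, a ring of the proteins MCM2 to MCM7, unwinds DNA at the fork. MCM6, the subunit whose promoter is shown above, had signals of 5688, 5543, 6303 and 6077, so that both ARRB1 siRNA arrays were above both control siRNA arrays by a small margin. MCM2 had 2939, 2885, 3483 and 3132, MCM5 had 2594, 2538, 2641 and 2985, and MCM7 had 3841, 3835, 4344 and 4058. In each of these 4 genes the ARRB1 siRNA arrays were the higher ones, with log2 differences from 0.03 to 0.24. MCM3 had signals of 2802, 2919, 2748 and 3237. MCM4 had signals of 4123, 3957, 4677 and 3489, and its ARRB1 siRNA arrays were the highest and the lowest of the 4. The MCM4 difference with nicotine was -0.06 in control siRNA cells and -0.42 in ARRB1 siRNA cells. In ARRB1 siRNA cells its other expressed probe sets were higher with nicotine, at 0.25 (212141_at), 0.14 (212142_at) and 0.09 (222037_at). Of the 6 helicase genes, 5 were higher with ARRB1 siRNA in each pair, all but MCM3 in serum starved cells and all but MCM4 in nicotine treated cells, with medians of 0.16 and 0.13 on the log2 scale.

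CDC45 and the GINS proteins turn the loaded MCM ring into an active helicase, and MCM10 helps this step. CDC45 had signals of 622, 616, 651 and 702, with the ARRB1 siRNA arrays the higher ones. MCM10 had signals of 1431, 1573, 1565 and 1637. GINS2 had signals of 1956, 1977, 1767 and 1851, with the ARRB1 siRNA arrays the lower ones, at log2 differences of -0.15 and -0.09. Fainter expressed GINS2 probe sets read a crossed order. With 1557595_at the signals were 152, 271, 284 and 157, and with 243136_at they were 69.6, 81.9, 107 and 61.6. Their log2 differences with ARRB1 siRNA were 0.90 and -0.79 for 1557595_at, and 0.62 and -0.41 for 243136_at. With nicotine they were 0.83 and -0.85, and 0.23 and -0.80. GINS1 had the narrowest range of the 43 genes, with signals of 5052, 5034, 4901 and 4895.

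Among the factors of DNA synthesis, PCNA had signals of 13076, 13986, 16542 and 15066. Both ARRB1 siRNA arrays were the higher ones, by 0.34 on the log2 scale in serum starved cells and 0.11 in nicotine treated cells. RFC4, a subunit of the complex that loads PCNA onto DNA, had signals of 2913, 2928, 3406 and 3448, and its log2 differences of 0.23 and 0.24 were nearly equal in the 2 pairs. POLA1, the catalytic subunit of the polymerase that starts each strand with primase, had signals of 1196, 1265, 1520 and 1172. Its serum starved ARRB1 siRNA array was the highest and its nicotine treated ARRB1 siRNA array the lowest, so the log2 differences with ARRB1 siRNA were 0.35 and -0.11.

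By brightest probe set FEN1, the flap nuclease that trims Okazaki fragments, stood apart from the other 42 genes. Its signals were 5622, 4045, 3673 and 5559. The control siRNA serum starved array and the ARRB1 siRNA nicotine array were high and the other 2 low. The log2 difference with nicotine was -0.47 in control siRNA cells and 0.60 in ARRB1 siRNA cells, and with ARRB1 siRNA it was -0.61 in serum starved cells and 0.46 in nicotine treated cells. The 2 nicotine differences differ by 1.07 on the log2 scale, against an SD of 0.22 among genes of like signal. By brightest probe set, FEN1 was the only 1 of the 43 genes whose nicotine differences differed 2-fold from each other. So did those of 3.48% of all expressed genes. FEN1 was also the only one past the smaller limit in opposite directions in both pairs. Of expressed genes, 2.95% were so for nicotine and 2.67% for ARRB1 siRNA. These values come from probe set 204767_s_at. The second FEN1 probe set, 204768_s_at, gave signals of 1882, 1942, 1924 and 2064, and its differences with nicotine were 0.05 and 0.10. So the crossed pattern was read by 1 of the 2 FEN1 probe sets. The fainter GINS2 probe sets given above also crossed, in the opposite direction.

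Nucleotide supply limits synthesis. RRM1 and RRM2, the subunits of ribonucleotide reductase, had signals of 7238, 7056, 7836 and 8377 and of 6877, 6561, 7453 and 7414, and for both genes the ARRB1 siRNA arrays were the higher ones. TK1, the thymidine kinase of S phase, had signals of 2240, 2187, 2367 and 2648. TYMS, thymidylate synthase, had signals of 11265, 11574, 10969 and 12556. With ARRB1 siRNA in nicotine treated cells all 4 genes were higher, with a median log2 difference of 0.21, and in serum starved cells 3 of 4 were, with a median of 0.10.

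The cyclin B kinase and the enzymes that turn it on bring cells into mitosis. CDK1, the mitotic kinase, had signals of 11506, 11356, 11546 and 12243. CCNB1 and CCNB2, its cyclins, had signals of 6949, 6770, 7379 and 6394 and of 4200, 3989, 4306 and 4101. Both cyclins had their nicotine arrays below their serum starved arrays, by 0.04 to 0.21 on the log2 scale. CDC25C, the phosphatase that activates CDK1, had signals of 446, 484, 514 and 495. PLK1 had signals of 766, 867, 674 and 696, with both ARRB1 siRNA arrays below both control siRNA arrays, at log2 differences of -0.19 and -0.32. Among the Aurora kinases, AURKA had 4699, 4880, 4941 and 4972 and AURKB had 1498, 1460, 1459 and 1611, so both varied little. Over these 7 genes the median log2 difference with ARRB1 siRNA was 0.04 in serum starved and 0.03 in nicotine treated cells.

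The spindle checkpoint holds cells until every chromosome is attached. MAD2L1, its inhibitor of the anaphase promoting complex, had signals of 5059, 4942, 6747 and 4820. As for ORC6, the serum starved ARRB1 siRNA array stood alone, at a log2 difference of 0.42 from control siRNA, and the other 3 arrays were close to each other. BUB1B, the checkpoint partner of MAD2L1, had signals of 1864, 1958, 1947 and 2605. Here the ARRB1 siRNA nicotine array stood alone, at 0.41 above control siRNA nicotine and 0.42 above ARRB1 siRNA serum starved. The checkpoint kinases varied less, with BUB1 at 1178, 1135, 1173 and 1294 and TTK at 1258, 1268, 1340 and 1259.

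Chromosome structure and the spindle complete the mitotic genes. TOP2A, the topoisomerase that untangles sister chromosomes, had signals of 8009, 8560, 7979 and 7458, and both ARRB1 siRNA arrays were the lower ones. CENPF, a kinetochore protein of late cycle cells, had signals of 2048, 2262, 1733 and 2233, with nicotine differences of 0.14 and 0.37. Another expressed CENPF probe set, 209172_s_at, ran the other way. It gave 989, 896, 890 and 715, with nicotine differences of -0.14 and -0.32. KIF11 had signals of 2734, 2859, 2857 and 2540. In nicotine treated cells all 3 were lower with ARRB1 siRNA, with log2 differences from -0.20 to -0.02, while in serum starved cells they lay between -0.24 and 0.06.

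Among the 7 regulators CDC25A had the widest range of all 43 genes. CDC25A, the phosphatase that activates CDK2 at the entry to S phase, had signals of 314, 289, 380 and 484. Both ARRB1 siRNA arrays were the higher ones, with log2 differences of 0.28 and 0.74, beside an SD among genes of like signal of 0.40 and 0.44. CCNE1, cyclin E1, had signals of 967, 792, 787 and 852, so the control siRNA serum starved array was the high one. CCNE2, cyclin E2, had signals of 493, 528, 408 and 482, and MYBL2, the B-MYB factor of late cycle genes, had 719, 779, 620 and 702. In both genes the ARRB1 siRNA arrays were the lower ones. CCNA2, cyclin A2, had signals of 2209, 2110, 2408 and 2165. FOXM1, the transcription factor of mitotic genes, had signals of 1695, 1647, 1684 and 1630, and MKI67, which encodes the proliferation marker Ki-67, had 1668, 1693, 1731 and 1806. By these probe sets both stayed within 0.10 on the log2 scale in every comparison. Other expressed MKI67 probe sets moved more. With 212023_s_at the signals were 709, 784, 748 and 625, at -0.33 with ARRB1 siRNA in nicotine treated cells. In serum starved cells 212020_s_at and 212022_s_at gave -0.16 and -0.17 with ARRB1 siRNA.

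A probe set that reads another stretch of the same transcript gives a second reading of the same RNA on the same array. The 43 genes had 91 probe sets that named them alone, of which 78 were expressed, and 25 genes had more than 1 expressed. Where the brightest probe set was past the limit of 25% higher or 20% lower, the other expressed probe sets of that gene went in the same direction in 0 of 1 case for nicotine in control siRNA cells, 3 of 8 for nicotine in ARRB1 siRNA cells, 1 of 4 for ARRB1 siRNA in serum starved cells and 2 of 2 for ARRB1 siRNA in nicotine treated cells. None of them was past that limit in the same direction. Among all expressed genes, 52.8%, 53.1%, 65.8% and 69.1% of such probe sets went in the same direction and 19.3%, 21.8%, 32.6% and 38.1% were past the limit, in the same order. ORC6, PCNA, POLA1 and BUB1B, also past the limit, had only 1 probe set each and no second reading. Where a gene had other expressed probe sets, none of them read its difference at that size. MAD2L1 is an example, since its second probe set 1554768_a_at gave 2526, 2442, 2460 and 2248, without the high serum starved ARRB1 siRNA array.

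The order of the arrays was also read on other probe sets. Over all 17 genes with both ARRB1 siRNA arrays above both control siRNA arrays, 6 of 18 other expressed probe sets (33.3%) showed the same order, near the 30.1% of 2734 such probe sets among all expressed genes. Of the 12 replication genes among them, 8 had 1 other expressed probe set each, and in 5 of these 8 (62.5%) it showed the same order, a count too small to set against that share. The 5 genes were CDC6, MCM5, MCM6, RRM2 and TK1. TK1 was read by 202338_at at log2 differences of 0.10 and 0.28, close to the 0.08 and 0.28 of its brightest probe set. In MCM5 the margin was narrow, since 201755_at gave 711, 840, 840 and 1093. The other 3 genes were CDT1, MCM7 and RRM1, and for RRM1 the probe set 201476_s_at ran the other way, at 948, 893, 831 and 754. For TOP2A, 201291_s_at gave 3490, 5105, 2702 and 4351, nicotine differences of 0.55 and 0.69 where the brightest probe set gave 0.10 and -0.10.

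**Figure D5:**
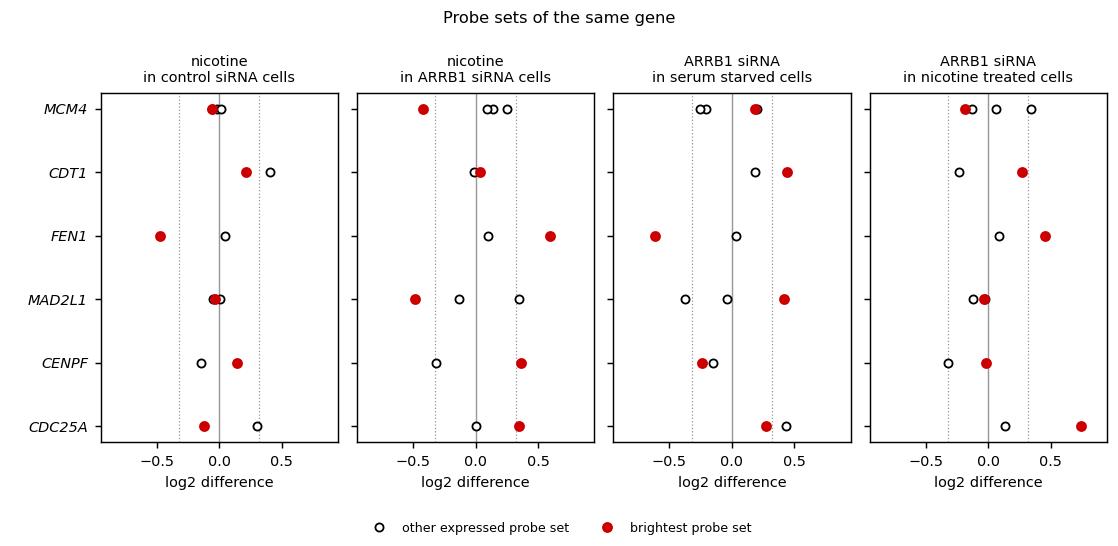
Log2 differences in the 4 comparisons for the 6 genes past the limit of 25% higher or 20% lower that have more than 1 expressed probe set, with filled points for the brightest probe set, open points for the others and dotted lines at that limit. The filled points of FEN1 lie at -0.47, 0.60, -0.61 and 0.46, and its open points lie between 0.03 and 0.10.

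Medians of genes with and without a motif are given as a description, with no test. The 10 replication genes with an E2F site had a median log2 difference with ARRB1 siRNA of 0.16 in serum starved cells and 0.11 in nicotine treated cells, and the 10 without one had 0.12 and 0.18. With nicotine in control siRNA cells the medians were 0.05 with the site and -0.02 without it. The 8 mitosis genes with a CHR had medians of 0.02 and -0.03 with ARRB1 siRNA, and the 4 without one had 0.04 and 0.09. With nicotine the mitosis genes with a CHR had medians of 0.07 after control siRNA and -0.01 after ARRB1 siRNA, and those without one had -0.04 and 0.04. The absence of a match says only that these letters are not in the window.

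Other genes of the same pathways were taken from longer lists. Of 51 other replication genes, 50 were expressed, and 0 of these differed 2-fold in any comparison. In serum starved cells 5 of the 50 were at least 25% higher with ARRB1 siRNA and 1 at least 20% lower, beside 14.1% and 12.7% of all expressed genes, and in nicotine treated cells 3 were higher and 5 lower, beside 12.9% and 15.8%. Both ARRB1 siRNA arrays lay above both control siRNA arrays for 13 of the 50 (26%), near the 26.6% of all expressed genes and below the 54.5% of the 22 replication genes listed above, a difference that was not tested. The median log2 differences of the 50 with ARRB1 siRNA lay 0.02 and 0.05 above that of all expressed genes. For the 22 replication genes they lay 0.11 above it in both pairs. RRM2B, the p53-induced subunit of ribonucleotide reductase, had signals of 1859, 2004, 2646 and 1572. Its high array was the serum starved ARRB1 siRNA one, as for ORC6 and MAD2L1. DBF4, the activator of the CDC7 kinase, had signals of 2790, 2932, 2909 and 1956, with the ARRB1 siRNA nicotine array low. GINS4 had signals of 449, 551, 448 and 681 and was higher with nicotine in both pairs.

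All 49 other mitosis genes were expressed, and 0 of them differed 2-fold. With ARRB1 siRNA 3 were at least 25% higher and 2 at least 20% lower in serum starved cells, beside 14.1% and 12.7% of all expressed genes, and 2 were higher and 2 lower in nicotine treated cells, beside 12.9% and 15.8%. Both ARRB1 siRNA arrays lay above both others for 8 of the 49 (16.3%), beside 26.6% of all expressed genes, and below for 9 (18.4%), beside 22.6%. MAD1L1, the checkpoint partner that recruits MAD2L1, had signals of 257, 287, 142 and 187, with log2 differences of -0.86 and -0.62. INCENP, the scaffold of Aurora B, had signals of 79.1, 96.5, 126 and 170 and stood in the opposite direction, at 0.68 and 0.82. CENPA, the histone variant of centromeres, had signals of 801, 834, 831 and 520, with the ARRB1 siRNA nicotine array low. Their promoters held a CHR in 29 of 40 cases (72.5%) and an E2F site in 3 of 40, and those of the other replication genes held a CHR in 2 of 42 and an E2F site in 10 of 42 (23.8%).

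Upstream of S phase, 11 of 14 G1 cyclins, CDKs and CDK inhibitors were expressed. None differed 2-fold. CDKN1C, the inhibitor p57, had signals of 410, 375, 228 and 227, with both ARRB1 siRNA arrays the lower ones and log2 differences of -0.85 and -0.72. CDKN1A, the inhibitor p21, had signals of 4735, 4833, 4797 and 5538, and CCND1, cyclin D1, had 4541, 4881, 5469 and 5454. The cyclin D1 arrays with ARRB1 siRNA were the higher ones.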

How the data were processed

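RNA of A549 cells was measured on 4 arrays, 1 per condition, and each array was assigned to its condition from its labels. The authors deposited linear signal intensity per probe set, made with MAS5 in GCOS 1.4 according to the submitters' processing notes. The mean intensity without the lowest and highest 2% of probe sets was 499.9 on each array. The log2 transformation and gene centring of the methods are not in the deposited intensities, so log2 was taken here.

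The table held 54675 probe sets, of which 62 are Affymetrix controls and were dropped. Of the other 54613, 41091 named 1 gene in the annotation given with the data, 1801 named several and 11721 had no symbol. For each gene the brightest probe set by mean log2 signal was used. Log2 differences, medians and counts were made in pandas 2.3.3 and numpy 2.4.6 under Python 3.11.15, plotted in matplotlib 3.10.9, and tested on simulated data. With 1 array per condition no test was made, and precision is limited by how few arrays there are. The SD of genes of like signal was taken over the 500 expressed genes nearest in mean signal. Promoters are RefSeq sequences of GRCh38.p14, and the first start site listed for a gene was used.

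Members and lists were chosen with earlier results of these data known. All 43 members could be named, with ARRB1, the markers, and of the other lists the 2 highest and 2 lowest expressed genes of each comparison and those at least 2-fold. The counts of arrays that do not overlap, the difference of the nicotine differences, the grouping by role and the readings of other probe sets were added after the values were seen. Alternatives were other scalings, limits, filters and choices of probe set.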

Additional observations from a re-analysis of the deposited data

Results flagged for a closer look

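By brightest probe set, FEN1 differed in opposite directions in the 2 pairs of arrays, by at least 25% upward and 20% downward. No other of the 43 genes did so by that reading. The log2 difference with nicotine was -0.47 in control siRNA cells and 0.60 in ARRB1 siRNA cells. The log2 difference with ARRB1 siRNA was -0.61 in serum starved cells and 0.46 in nicotine treated cells. The difference between the pairs was not tested, since each condition has 1 array. The second FEN1 probe set, 204768_s_at, gave 0.05 and 0.10 with nicotine and 0.03 and 0.09 with ARRB1 siRNA. A fainter GINS2 probe set, 1557595_at, also crossed past the limit. It gave 0.83 and -0.85 with nicotine and 0.90 and -0.79 with ARRB1 siRNA.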

How the results depend on the processing

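No paired analysis was possible because the conditions share only 1 replicate number, with 1 array each, so the direction in each of the 2 pairs is given in its place, and no array could be left out of a comparison. The count of 0 genes at 2-fold depends on the limit. At 1.5-fold, 1 gene was higher with nicotine in ARRB1 siRNA cells (FEN1), 1 was lower with ARRB1 siRNA when serum starved (FEN1) and 1 was higher with ARRB1 siRNA in nicotine treated cells (CDC25A). At 25% higher or 20% lower, 1 was lower with nicotine in control siRNA cells, 4 were higher and 4 lower with nicotine in ARRB1 siRNA cells, 5 were higher and 1 lower with ARRB1 siRNA when serum starved, and 3 were higher with ARRB1 siRNA in nicotine treated cells. Relative to all expressed genes, the replication median with ARRB1 siRNA ranged from 0.08 to 0.16 in serum starved cells and from 0.06 to 0.14 in nicotine treated cells over the scalings, filters and choices of probe set tried. Of 84 medians of the 3 groups under these alternatives, 11 had another sign, and the largest move was 0.13. Relative to the median gene, the genes higher and lower in both pairs with ARRB1 siRNA (20 and 8) were 18 and 11 after quantile normalization and 15 and 11 with the median of the probe sets, and those with nicotine (17 and 8) were 18 and 7 and then 14 and 12. In alternatives chosen after seeing the data, the counts of genes with both ARRB1 siRNA arrays above both others were 13 with each array centred on its median, 18 after quantile normalization and 13 with the median of the probe sets of a gene, and the replication genes among them were 11, 11 and 12. Without _x_at probe sets, 1 gene (CDT1) was read by another probe set, and ORC6 and FOXM1 had none.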
